A study of Mus musculus with 8 samples.

Results

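Enteroendocrine hormones are the peptides and amines that scattered endocrine cells of the gut epithelium release in response to a meal. The 10 genes described here (Gip, Cck, Sct, Ghrl, Sst, Nts, Gcg, Pyy, Tac1 and Tph1) were taken by symbol from a deposited table of 17634 genes, and all 10 were among the 12908 genes with enough counts to be tested. They were compared between small intestinal crypts of miR-29ab1-/- mice (4 libraries) and of wild-type (WT) mice (4 libraries), all C57BL/6N and all taken 3 days after irradiation. Unirradiated crypts were not analysed here, so each difference below is between genotypes after irradiation. Neither the radiation dose nor the age of the mice is stated by the labels. The labels describe the knockout only as miR-29ab1-/-, with no promoter or cell type named that would restrict the deletion.

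Each enteroendocrine cell makes a limited set of hormones and stores them in dense granules, which granins fill and in which prohormone convertases cut the precursor peptides. The cells arise from the same crypt progenitors as the other secretory lineages, through a succession of transcription factors that includes Neurog3 and Neurod1. In the small intestine the classical types are the K cell (Gip), the I cell (Cck), the S cell (Sct), the X cell (Ghrl), the D cell (Sst), the N cell (Nts), the L cell (Gcg and Pyy) and the enterochromaffin cell (Tph1 and Tac1), with wide overlap between them.

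The deleted locus encodes miR-29a and miR-29b-1, which are shown because all miR-29 family members pair with their targets through 1 common seed. Mature sequences are from RefSeq (GRCm38.p6), 5′ to 3′, with the seed, bases 2 to 8, in capitals. The locus lies on the minus strand of chromosome 6 (chr6:31062673-31062694 for miR-29a-3p and chr6:31063025-31063047 for miR-29b-3p), while miR-29c-3p, and the same miR-29b-3p again, come from a separate locus on the plus strand of chromosome 1 (chr1:195037600-195037621 and chr1:195037091-195037113). The microRNAs themselves were not analysed here, so the genotypes rest on the labels.
mmu-miR-29a-3p: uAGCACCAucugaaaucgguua
mmu-miR-29b-3p: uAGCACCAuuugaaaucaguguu
mmu-miR-29c-3p: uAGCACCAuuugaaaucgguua

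The site complementary to this seed, TGGTGCT, was looked up in 3′ UTRs on the transcribed strand, taking the longest one that GENCODE M21 (GRCm38) annotates for a gene. It was found in 1 of the 10 hormone genes, Tph1 on chromosome 7, at base 1804 of a UTR of 2785 bases, and it is printed here in capitals with its flanks because no other hormone UTR held it. Among the tested genes with an annotated 3′ UTR, 1963 of 12641 held the site (15.5%). The hormone UTRs were short, with a median of 294.5 bases against 1164 bases in the tested genes.
Tph1 site: ctagactctggTGGTGCTgaagaatcactt

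Library totals ran from 9481201 to 14612798 counts in miR-29ab1-/- crypts and from 10719668 to 16231099 counts in WT crypts. Levels within a gene are CPM (counts scaled to a common library size) after scaling by trimmed-mean (TMM) factors, which were 0.80 to 1.06 in miR-29ab1-/- libraries and 1.04 to 1.19 in WT libraries. Differences were tested with edgeR's quasi-likelihood test across all 12908 genes, with Benjamini-Hochberg adjustment and a threshold of 0.05. The preparation held enteroendocrine RNA in every library: of 10 endocrine markers other than hormones (Chga, Chgb, Neurod1, Insm1, Rfx6, Isl1, Pax6, Pcsk1, Scg2 and Scg3) none was at 0 in any group, and their sum was 455 to 723 CPM in miR-29ab1-/- crypts and 310.4 to 493 CPM in WT crypts, with 4 of the 10 called higher. The ranges of this marker sum overlapped, and over all tested genes 24.2% were called higher. Of the 4 called markers (Chga, Neurod1, Pcsk1 and Scg2), Pcsk1 alone kept its call whichever 1 library was left out. Replicate 4 stood apart in both groups by its summed counts of 4 Y-linked genes, 1 in miR-29ab1-/- and 3 in WT, against 1285 to 2061 in the other libraries.

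Of the 10 hormone genes, 4 rose in miR-29ab1-/- crypts (Gip, Sst, Ghrl and Sct), 0 fell, and 6 did not pass the test. Across all tested genes, 47.3% passed, 24.2% higher and 23.1% lower in miR-29ab1-/- crypts, so the share of hormone genes that passed was no larger than that of all genes, and the 4 that passed all lay on the higher side. At an unadjusted p under 0.05, 5 hormone genes were higher and 0 lower by edgeR, and DESeq2 also called 0 lower. The shares of all tested genes at that unadjusted threshold were not computed, and they cannot be smaller than the adjusted shares. The median log2 fold change of the 10 was 0.70, against 0.03 over all tested genes. In the same 4 genes every miR-29ab1-/- library lay above every WT library; over all tested genes 45.4% had groups that did not overlap, 22.7% with the miR-29ab1-/- libraries higher and 22.7% with the WT libraries higher. In whole crypts, a change in the number of cells of a type and a change in the RNA per cell cannot be told apart, here and in all that follows. Without both libraries numbered 3, which was tried after seeing the data, 2 of the 4 passed (Sst and Ghrl), with edgeR adjusted p = 0.0579 for Gip and 0.0595 for Sct.

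**Figure D1:**
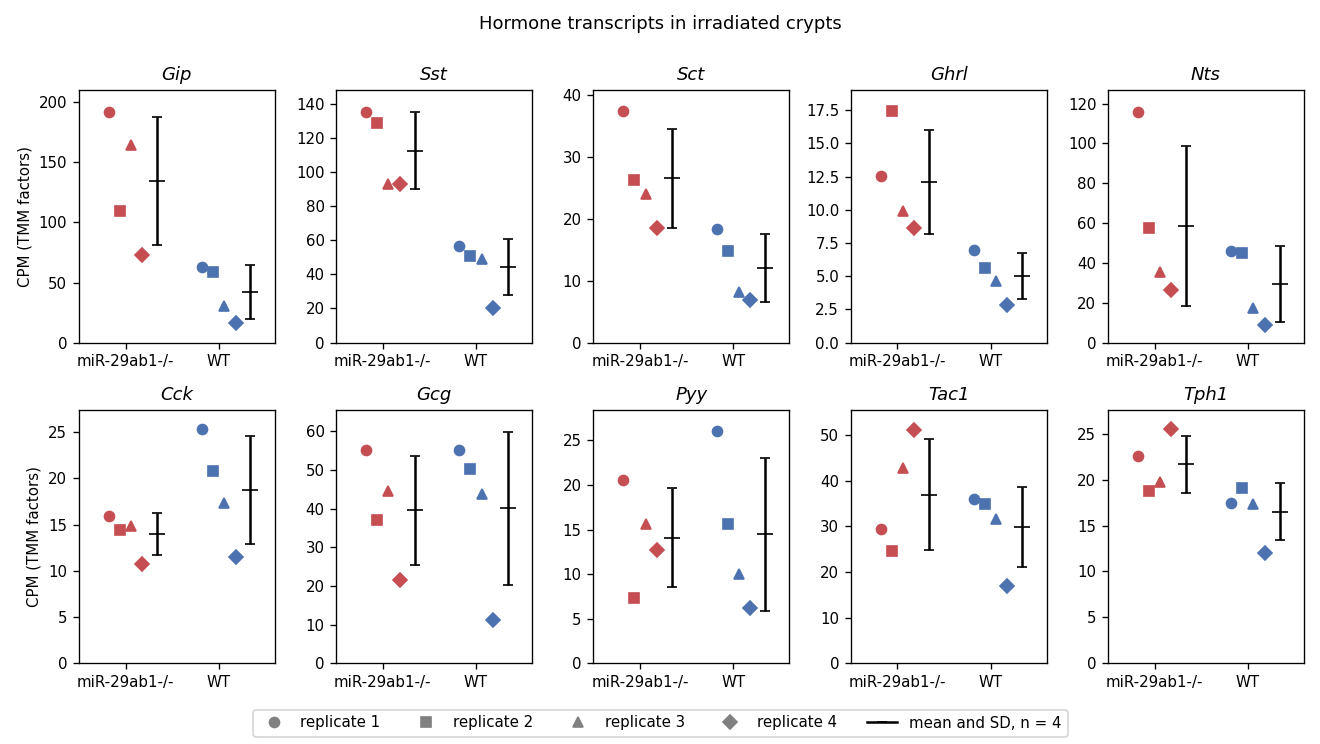
CPM (vertical axis, TMM-scaled, linear from 0) of each of the 10 hormone genes in the 4 miR-29ab1-/- libraries (red) and the 4 WT libraries (blue), with marker shapes for replicate numbers and bars for mean and SD. The groups separate for Gip, Sst, Sct and Ghrl and overlap for the other 6, and WT replicate 4 is the lowest WT library in every panel.

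Gip encodes glucose-dependent insulinotropic polypeptide, the incretin of the K cell. Its level was 192, 109.6, 164 and 72.8 CPM in miR-29ab1-/- replicates 1 to 4, against 62.5, 58.8, 30.5 and 15.9 CPM in WT replicates 1 to 4. The groups did not overlap, although the lowest knockout library, replicate 4, lay close to the highest WT library. The mean was 135 ± 53.5 CPM in miR-29ab1-/- crypts and 41.9 ± 22.5 CPM in WT crypts (SD, n = 4 each), a log2 fold change of 1.69 with a standard error (SE) of 0.45 and a 95% interval of 0.67 to 2.70 (edgeR adjusted p = 0.0132). This 3.22-fold difference was the largest of the 10 in the fit.

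Cck encodes cholecystokinin, the I-cell hormone that contracts the gallbladder and stimulates pancreatic enzyme secretion. It was the hormone gene with the lowest fold change. It stood at 15.9, 14.4, 14.9 and 10.8 CPM in miR-29ab1-/- replicates 1 to 4, against 25.3, 20.8, 17.3 and 11.5 CPM in WT replicates 1 to 4. In WT crypts 3 libraries lay above all knockout libraries, and WT replicate 4 lay among them. The log2 fold change was -0.42 (SE 0.24, 95% interval -0.96 to 0.12, edgeR adjusted p = 0.18), which did not pass. It did pass, on the lower side, when libraries were scaled by total counts alone (log2 fold change -0.68, edgeR adjusted p = 0.0380), without WT replicate 4 (-0.60, edgeR adjusted p = 0.0379) and without replicate 4 of both groups (-0.52, edgeR adjusted p = 0.0480).

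Sct encodes secretin, the S-cell hormone that makes the pancreas secrete bicarbonate. Its level was 37.3, 26.2, 24.0 and 18.4 CPM in miR-29ab1-/- crypts, against 18.4, 14.7, 8.19 and 6.83 CPM in WT crypts, in order of replicate. The groups touched without overlapping: knockout replicate 4 and WT replicate 1 were level to the digits shown. Sct rose with a log2 fold change of 1.15 (SE 0.34, 95% interval 0.38 to 1.91, edgeR adjusted p = 0.0207). The call was lost without miR-29ab1-/- replicate 1 (log2 fold change 0.90, edgeR adjusted p = 0.0668) and without WT replicate 3 (1.00, edgeR adjusted p = 0.0555).

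Ghrl encodes ghrelin, the appetite-stimulating peptide of X cells, which are most numerous in the stomach and continue into the upper small intestine. It was counted at 12.5, 17.4, 9.87 and 8.61 CPM in miR-29ab1-/- crypts, against 6.98, 5.65, 4.602 and 2.86 CPM in WT crypts. Every knockout library exceeded every WT library. These levels rest on 92 to 197 counts per miR-29ab1-/- library and 52 to 99 counts per WT library. Ghrl rose 2.42-fold, a log2 fold change of 1.27 (SE 0.32, 95% interval 0.56 to 1.99, edgeR adjusted p = 0.00993). Mboat4, the enzyme that octanoylates ghrelin, had too few counts to be tested.

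Sst encodes somatostatin, the D-cell peptide that restrains the release of the other gut hormones. Its level was 135, 129, 93.2 and 92.9 CPM in miR-29ab1-/- crypts, against 56.9, 50.9, 49.0 and 20.4 CPM in WT crypts. The gap between the groups was wide, with the lowest knockout library well above the highest WT library. Sst rose 2.55-fold, a log2 fold change of 1.35 (SE 0.30, 95% interval 0.68 to 2.02), with the smallest adjusted p of the 10 (edgeR adjusted p = 0.00554). Sst and Ghrl passed the test under all 21 alternative settings.

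Nts encodes neurotensin, the N-cell peptide that slows gut motility and promotes fat absorption. Its level was 116, 57.4, 35.2 and 26.4 CPM in miR-29ab1-/- replicates 1 to 4, against 46.0, 45.2, 17.2 and 8.75 CPM in WT replicates 1 to 4. Both groups fell into the same order of replicates, and their ranges overlapped. The log2 fold change of 1.009 had a wide interval of -0.33 to 2.35 (edgeR adjusted p = 0.188) and did not pass. With the replicate number as a block it was 1.06 and passed (edgeR adjusted p = 0.00395), so the block fit called 5 hormone genes higher. No label gives this pairing. It was inferred from the same expression values, so the block and the call are not independent. Without knockout replicate 1, the highest library, the unpaired log2 fold change was 0.43 (edgeR adjusted p = 0.571).

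Gcg and Pyy are the L-cell pair: Gcg encodes proglucagon, the precursor of the glucagon-like peptides, and Pyy encodes the satiety signal peptide YY. Gcg stood at 55.0, 36.9, 44.5 and 21.6 CPM in miR-29ab1-/- crypts, against 55.1, 50.1, 43.7 and 11.3 CPM in WT crypts. Pyy stood at 20.6, 7.34, 15.7 and 12.7 CPM in miR-29ab1-/- crypts, against 26.0, 15.6, 9.98 and 6.22 CPM in WT crypts. The groups overlapped throughout for both genes, and WT replicate 4 was low for both. The log2 fold change was -0.02 for Gcg (95% interval -1.03 to 0.99, edgeR adjusted p = 0.978) and -0.03 for Pyy (95% interval -1.04 to 0.97, edgeR adjusted p = 0.956). Both intervals reach about 1 log2 unit on either side of 0, so they do not show that the L-cell genes were alike in both genotypes.

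Tph1 and Tac1 mark enterochromaffin cells. Tph1, tryptophan hydroxylase 1, catalyses the rate-limiting step of serotonin synthesis in the gut, and was counted at 22.6, 18.7, 19.7 and 25.5 CPM in miR-29ab1-/- crypts, against 17.5, 19.1, 17.4 and 12.0 CPM in WT crypts. The groups overlapped through a single library pair, since WT replicate 2 lay above knockout replicate 2. Its log2 fold change was 0.39 (95% interval 0.01 to 0.78, edgeR adjusted p = 0.0874). Tac1, the precursor of substance P, stood at 29.3, 24.6, 42.8 and 51.1 CPM in miR-29ab1-/- crypts, against 35.9, 35.0, 31.6 and 17.0 CPM in WT crypts. Here the replicates split, with knockout replicates 3 and 4 high and knockout replicates 1 and 2 below 3 of the WT libraries (log2 fold change 0.31, 95% interval -0.34 to 0.96, edgeR adjusted p = 0.401).

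Within replicate numbers, the log2 ratio of the miR-29ab1-/- to the WT library was above 0 in all 4 pairs for Gip, Sst, Sct, Ghrl and Nts. For Gip it was 1.62, 0.90, 2.43 and 2.19 in pairs 1 to 4, and for Ghrl it was 0.84, 1.62, 1.10 and 1.59. Cck was the single hormone gene with the knockout library lower in all 4 pairs, at -0.67, -0.53, -0.22 and -0.09. The remaining 4 genes had mixed signs, and in each of them pair 4 gave the highest ratio (0.94 for Gcg, 1.03 for Pyy, 1.59 for Tac1 and 1.09 for Tph1). The share of all tested genes with 1 sign in all 4 pairs was not computed. It cannot be below the 22.7% higher and 22.7% lower whose groups did not overlap. Pair 4 is the one whose Y-linked counts stand apart in both genotypes, and WT replicate 4 had the lowest WT level of all 10 hormone genes; the part of that library in these results was not tested beyond leaving it out. Without replicate 4 in either group the same number of hormone genes, 4, was called higher.

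**Figure D2:**
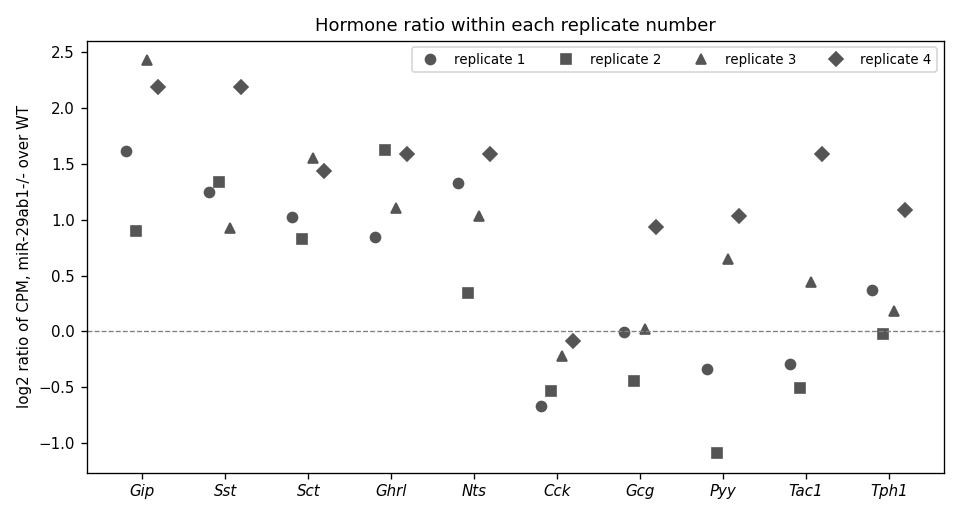
Log2 ratio of CPM, miR-29ab1-/- over WT (vertical axis), for each of the 10 hormone genes within replicate numbers 1 to 4 (marker shapes), with a dashed line at 0. All 4 ratios of Gip, Sst, Sct, Ghrl and Nts lie above 0, all 4 of Cck lie below it, and replicate 4 gives the highest ratio for Gcg, Pyy, Tac1 and Tph1.

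Levels of different hormones were compared on the deposited per-length scale, FPKM. In miR-29ab1-/- crypts Gip averaged 229 ± 92.0 FPKM and Sst 212 ± 19.4 FPKM, followed by Sct at 60.0 ± 13.3 FPKM (SD, n = 4 each). Nts, Gcg, Tac1, Pyy, Ghrl and Cck came next, with means of 47.9, 36.8, 36.3, 29.6, 24.45 and 22.3 FPKM in that order, and Tph1 was last at 10.03 ± 2.43 FPKM. Neighbours in this order differed by more than their combined SD at 2 places, between Sst and Sct and between Cck and Tph1. In WT crypts Sst averaged 102 ± 36.9 FPKM and Gip 85.6 ± 43.0 FPKM, ahead of Gcg at 45.2 ± 21.7 FPKM. Below them Cck, Pyy, Tac1, Sct and Nts lay close together between 35.8 and 29.8 FPKM, and Ghrl (13.1 ± 4.25 FPKM) and Tph1 (9.52 ± 2.45 FPKM) were lowest. No neighbouring pair in WT crypts differed by more than its combined SD.

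The hormone transcripts summed to 539 to 849 FPKM in miR-29ab1-/- crypts and to 192 to 572 FPKM in WT crypts, with knockout replicate 4 below WT replicate 1. As a share of that sum, Gip made up 34.3%, 27.4%, 39.5% and 24.4% in miR-29ab1-/- replicates 1 to 4, against 21.3%, 22.9%, 16.6% and 17.1% in WT replicates 1 to 4. Its share was higher in every knockout library than in any WT library. Cck made up 2.65% to 3.38% of the sum in miR-29ab1-/- crypts and 7.56% to 11.5% in WT crypts. Shares of Gcg (4.02% to 5.90% in miR-29ab1-/- crypts, 6.71% to 13.02% in WT crypts) and Pyy (2.29% to 5.21% in miR-29ab1-/- crypts, 6.52% to 10.8% in WT crypts) were also apart. The shares of a library add to a whole and are not independent, and the lower shares of Gcg and Pyy stand beside CPM levels that did not pass the test. The ranges of the other 6 hormones overlapped, Sst included, at 24.9% to 35.9% in miR-29ab1-/- crypts and 21.6% to 29.6% in WT crypts.

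**Figure D3:**
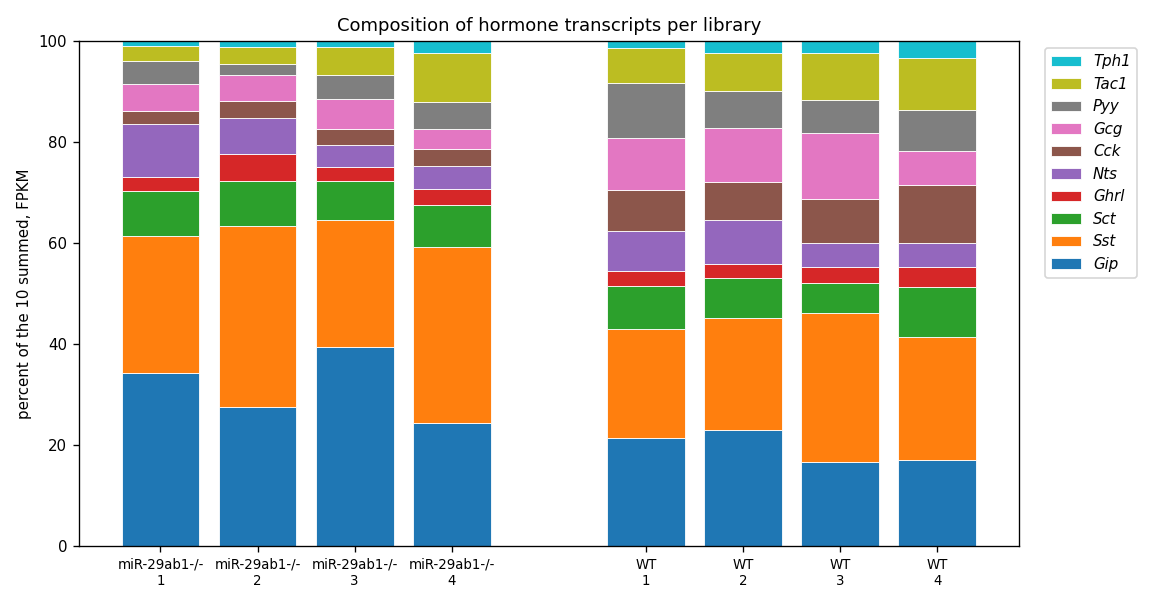
Share of each hormone gene in the summed FPKM of the 10 (vertical axis, percent), stacked per library, with the 4 miR-29ab1-/- libraries on the left and the 4 WT libraries on the right. The Gip block spans 24.4% to 39.5% in miR-29ab1-/- libraries and 16.6% to 22.9% in WT libraries, while the Cck block is thinner in every miR-29ab1-/- library.

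Set against the summed granins Chga and Chgb, the picture changed in part. Chga and Chgb encode chromogranins, which fill the granules of most enteroendocrine cells, and their summed level was 217 ± 63.6 FPKM in miR-29ab1-/- crypts and 186 ± 31.5 FPKM in WT crypts (SD, n = 4 each), with overlapping ranges. This reference is not neutral. Chga was itself called higher in miR-29ab1-/- crypts (log2 fold change 0.57, edgeR adjusted p = 0.0380), and a higher sum lowers every ratio. Chga was also the nearest gene to Tph1 in profile. Per unit of this sum, Cck was 0.124, 0.140, 0.112 and 0.0623 in miR-29ab1-/- replicates 1 to 4, against 0.217, 0.219, 0.172 and 0.153 in WT replicates 1 to 4. Cck was the single hormone gene whose groups did not overlap on this scale, with a ratio of the means of 0.577. Gip per granin ran from 0.451 to 1.61 in miR-29ab1-/- crypts and from 0.228 to 0.665 in WT crypts. Sst per granin ran from 0.642 to 1.499 in miR-29ab1-/- crypts and from 0.324 to 0.644 in WT crypts. For both genes the overlap came from knockout replicate 4, which had the highest granin level of all libraries (292 FPKM). The ratio of the means was 2.53 for Gip, 1.99 for Sst, 1.84 for Ghrl and 1.70 for Sct, with overlapping groups throughout.

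**Figure D4:**
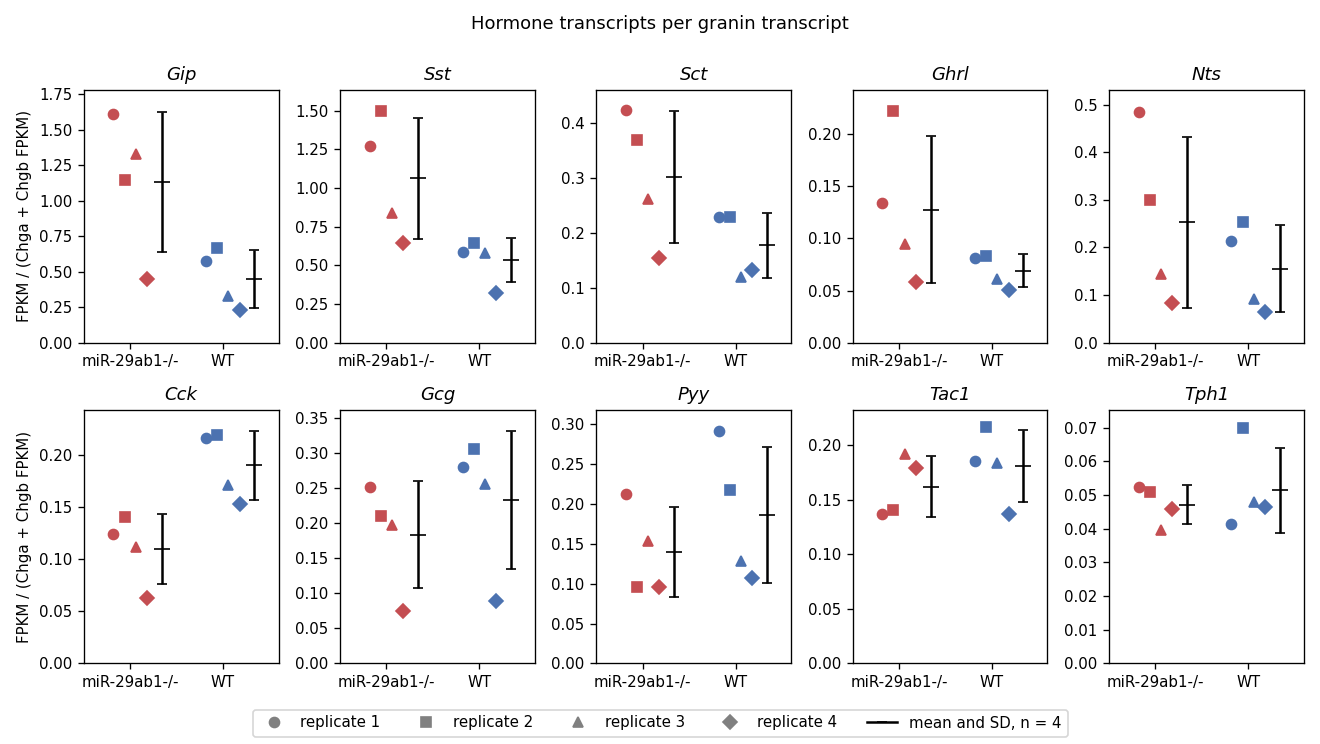
FPKM of each hormone gene divided by the summed FPKM of Chga and Chgb (vertical axis, from 0) in the 4 miR-29ab1-/- libraries (red) and the 4 WT libraries (blue), with marker shapes for replicate numbers and bars for mean and SD. The groups are apart for Cck, lower in miR-29ab1-/- libraries, and overlap for the other 9 hormone genes.

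The genes that package and process the hormones were described from a list of granins and prohormone enzymes. Of its 11 tested members 5 rose, 0 fell and 6 did not pass, with a median log2 fold change of 0.71 against 0.03 over all tested genes. The share that passed was close to the 47.3% of all tested genes, of which 24.2% were higher. Cpe, carboxypeptidase E, which trims cleaved prohormones, averaged 43.9 ± 16.7 CPM in miR-29ab1-/- crypts and 18.6 ± 7.16 CPM in WT crypts (log2 fold change 1.25, SE 0.33, edgeR adjusted p = 0.0121). Pcsk1, the prohormone convertase of most gut endocrine cells, averaged 21.7 ± 3.59 CPM in miR-29ab1-/- crypts and 10.6 ± 3.78 CPM in WT crypts (log2 fold change 1.04, SE 0.28, edgeR adjusted p = 0.0142). Pam, which amidates peptide ends, rose by less (log2 fold change 0.73, edgeR adjusted p = 0.0116), as did secretogranin 2, Scg2 (0.99, edgeR adjusted p = 0.0256), and chromogranin A, Chga (0.57, edgeR adjusted p = 0.0380). Chgb, chromogranin B, averaged 316 ± 67.0 CPM in miR-29ab1-/- crypts and 243 ± 39.9 CPM in WT crypts and did not pass (log2 fold change 0.38, edgeR adjusted p = 0.123). The count depends on scaling: with total counts alone 1 of the 5 passed, Cpe, and that scaling moved the median of all tested genes to -0.23 and the calls over all genes to 2089 higher and 4011 lower, against 3129 higher and 2976 lower. The Chga call was also lost with the replicate block (edgeR adjusted p = 0.0518) and without any 1 of 5 libraries (knockout replicates 1 and 4 and WT replicates 2, 3 and 4, edgeR adjusted p = 0.0678 to 0.114), and Scg2 lost its call without knockout replicate 1 or 3 (edgeR adjusted p = 0.0569 and 0.0670).

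A further list held genes of serotonin synthesis, storage and removal and 2 enzymes that modify peptide hormones (Mboat4 and Qpct). Of its 9 tested genes, Tph1 included, 5 rose and 0 fell, against 24.2% higher and 23.1% lower over all tested genes, and those 5 passed under all 21 alternative settings. Ddc, the decarboxylase that completes serotonin synthesis, averaged 59.0 ± 18.1 CPM in miR-29ab1-/- crypts and 17.2 ± 4.00 CPM in WT crypts (log2 fold change 1.78, SE 0.26, edgeR adjusted p = 0.00130). Slc18a1, the vesicular monoamine transporter of enterochromaffin cells, averaged 24.8 ± 4.597 CPM in miR-29ab1-/- crypts and 10.96 ± 1.53 CPM in WT crypts (log2 fold change 1.18, edgeR adjusted p = 0.00129). Slc6a4, which takes serotonin up into enterocytes, rose 9.62-fold (edgeR adjusted p = 0.00152), Maoa, which degrades it, rose 4.83-fold (edgeR adjusted p = 0.00180), and Maob rose 48.1-fold (edgeR adjusted p = 0.00108) with means of 54.6 ± 36.0 CPM in miR-29ab1-/- crypts and 1.14 ± 0.520 CPM in WT crypts. The size of the Maob difference moved with the setting, with log2 fold changes from 3.63 to 6.41 over the alternatives. Ddc, Slc6a4 and Maoa are also known from enterocytes, whose 12 markers summed to 24094 to 76200.5 CPM in miR-29ab1-/- crypts and 2261 to 10284 CPM in WT crypts, with all 12 called higher; their part in these differences was not tested. Slc18a2, Gch1 and Qpct did not pass.

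**Figure D5:**
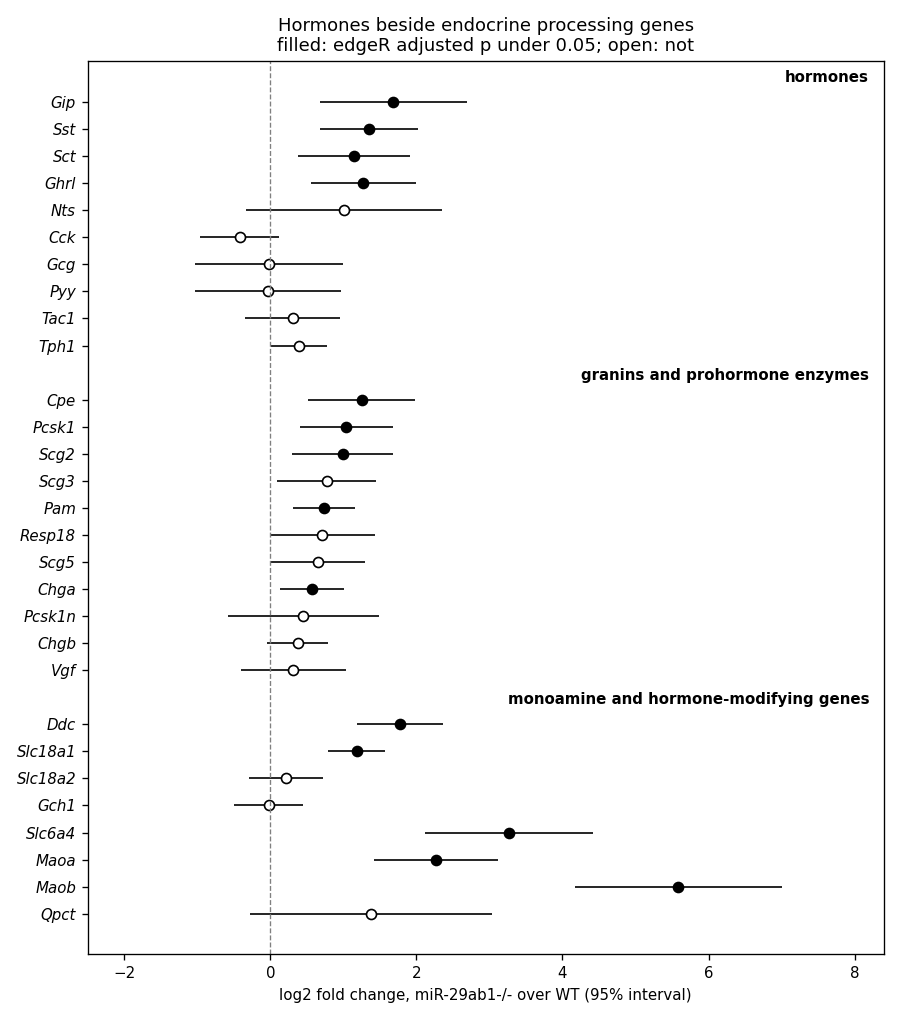
Log2 fold change, miR-29ab1-/- over WT (horizontal axis), with 95% intervals for the 10 hormone genes, 11 tested granin and prohormone-enzyme genes and 8 further tested genes of the list of monoamine and hormone-modifying genes. Filled points passed edgeR's adjusted threshold of 0.05 and open points did not; all filled points lie above 0, and Cck has the lowest value.

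Of 20 tested transcription factors of the endocrine lineage, 4 rose, 1 fell and 15 did not pass, with a median log2 fold change of 0.51. Both shares were below those of all tested genes, 24.2% higher and 23.1% lower. Neurod1, which acts in differentiating endocrine cells, stood at 8.14 to 9.35 CPM in miR-29ab1-/- crypts and at 2.20 to 6.27 CPM in WT crypts (log2 fold change 0.86, edgeR adjusted p = 0.0451). Nkx2-2, needed for endocrine subtype choice, had a log2 fold change of 1.10 (edgeR adjusted p = 0.0260), and Lmx1a, a factor of the enterochromaffin lineage, one of 0.98 (edgeR adjusted p = 0.0335). Atoh1, the factor of all secretory cells, rose with a log2 fold change of 0.59 (edgeR adjusted p = 0.00394). Sox4, present in early progenitors, fell to 41.7 ± 11.3 CPM in miR-29ab1-/- crypts, against 88.8 ± 11.5 CPM in WT crypts (log2 fold change -1.09, edgeR adjusted p = 0.00239). Neurog3, which commits progenitors to the endocrine fate, averaged 6.72 ± 1.90 CPM in miR-29ab1-/- crypts and 4.53 ± 1.497 CPM in WT crypts and did not pass (log2 fold change 0.57, edgeR adjusted p = 0.151). With scaling by total counts 0 of the 4 passed (2 factors were called lower). Leaving out 1 library ended the call of Neurod1 (all knockout replicates and WT replicate 3, edgeR adjusted p = 0.0652 to 0.107), Lmx1a (knockout replicates 1, 3 and 4 and WT replicates 2 and 4, 0.0587 to 0.0970) and Nkx2-2 (knockout replicates 2 and 4 and WT replicates 1 and 4, 0.0701 to 0.0937). With the replicate block 2 factors were called lower, the second being Rfx3 (log2 fold change -0.53, edgeR adjusted p = 0.0393), chosen after its value was seen.

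Among 13 tested genes of the secretory vesicle and its excitation, 3 rose and 0 fell, close on the higher side to the 24.2% of all tested genes. Syt7, a calcium sensor of granule exocytosis, averaged 23.3 ± 1.44 CPM in miR-29ab1-/- crypts and 11.9 ± 2.59 CPM in WT crypts (log2 fold change 0.97, edgeR adjusted p = 0.00203). The calcium channel gene Cacna1c (log2 fold change 1.38, edgeR adjusted p = 0.0148) and the SNARE gene Snap25 (1.28, edgeR adjusted p = 0.0470) also rose, both at mean levels under 2 CPM in either genotype. Snap25 was not called with the replicate block (edgeR adjusted p = 0.0507) or without any 1 library except WT replicate 2 (0.0520 to 0.149), and with scaling by total counts 1 of the 3 genes, Syt7, passed. Of 5 other gut hormone genes with enough counts, 1 rose: Guca2a, guanylin, which enterocytes and goblet cells also make, at 719 ± 364 CPM in miR-29ab1-/- crypts and 168 ± 53.9 CPM in WT crypts (log2 fold change 2.10, edgeR adjusted p = 0.00319).

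Of 6 tested nutrient sensors of endocrine cells, 1 rose and 1 fell, below the shares of all tested genes (24.2% higher, 23.1% lower). Slc5a1, the sodium-glucose transporter through which K and L cells sense glucose and which enterocytes carry in abundance, had a log2 fold change of 2.99 (edgeR adjusted p = 0.00326). Ffar4, a receptor for long-chain fatty acids, fell to 8.42 ± 1.21 CPM in miR-29ab1-/- crypts, against 11.6 ± 1.30 CPM in WT crypts (log2 fold change -0.46, edgeR adjusted p = 0.0478), a call that was lost with the replicate block (0.0544) and without any 1 of 6 libraries (knockout replicates 1, 2 and 3 and WT replicates 1, 3 and 4, 0.0708 to 0.112). Of 6 tested hormone receptors and peptidases, 3 rose and 1 fell, to be read against the same shares of all tested genes. Vipr1, a receptor for vasoactive intestinal peptide, rose 3.06-fold (edgeR adjusted p = 0.00183), and Dpp4, the peptidase that inactivates the incretins and an abundant brush-border enzyme of enterocytes, rose 6.42-fold (edgeR adjusted p = 0.00225) beside the higher enterocyte markers given above. Sstr3, a somatostatin receptor, averaged 3.44 ± 1.54 CPM in miR-29ab1-/- crypts and 1.36 ± 0.154 CPM in WT crypts (log2 fold change 1.34, edgeR adjusted p = 0.0154), and was not called without knockout replicate 2 (0.0549). Htr4, a serotonin receptor, fell to 4.19 ± 1.81 CPM in miR-29ab1-/- crypts, against 9.46 ± 1.09 CPM in WT crypts (log2 fold change -1.18, edgeR adjusted p = 0.0112).

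The libraries also differed in markers of other cells, and the part of these in the hormone results was not tested. Their call counts are to be read against all tested genes, of which 24.2% were called higher and 23.1% lower. Sums without overlap are to be read beside the 22.7% of single tested genes in which every miR-29ab1-/- library was higher. Goblet markers summed to 8939 to 14659 CPM in miR-29ab1-/- crypts and 1754 to 4359 CPM in WT crypts (6 of 7 called higher), tuft markers to 46.6 to 61.6 CPM and 11.3 to 22.8 CPM in the same order of groups (5 of 5 tested called higher), and stem cell markers to 366 to 799.6 CPM and 476 to 797 CPM (3 of 5 called lower). Paneth markers overlapped, at 9740.0 to 30671 CPM in miR-29ab1-/- crypts and 8949 to 13013 CPM in WT crypts (0 of 6 called). Immune markers overlapped too, at 69.6 to 482 CPM in miR-29ab1-/- crypts and 26.5 to 124 CPM in WT crypts. Of 5 tested immune markers 0 were called, and knockout replicate 3 was the highest library. Sst, Nts and Tac1 are also neuronal peptides. Enteric neuron markers summed to 14.6 to 20.7 CPM in miR-29ab1-/- crypts and 6.83 to 13.1 CPM in WT crypts, without overlap. Of 11 such markers 3 could be tested, and all 3 rose (Ret, Snap25 and Prph). Among those too low to test, Elavl4 and Vip averaged 0.0865 and 0.0249 CPM in miR-29ab1-/- crypts and 0.124 and 0 CPM in WT crypts. Enteric glia markers summed to 99.8 to 169 CPM in miR-29ab1-/- crypts and 57.8 to 67.8 CPM in WT crypts, also without overlap. Almost all of that sum came from Erbb3, which epithelial cells also express and which was the 1 tested of 5 and rose. Sox10, too low to test, averaged 0.0499 CPM in miR-29ab1-/- crypts and 0.0275 CPM in WT crypts. Mast cells carry Tph1 as well. Their markers summed to 26.6 to 49.6 CPM in miR-29ab1-/- crypts and 14.6 to 24.0 CPM in WT crypts, without overlap. Of 9 mast cell markers 4 were tested, of which 1 rose (Kit) and 0 fell. Their median log2 fold change was -0.07, so the tested markers as a set did not share the separation of the sums. Among the mast cell markers too low to test, Cpa3 and Ms4a2 averaged 0.0249 and 0 CPM in miR-29ab1-/- crypts and 0 and 0.0138 CPM in WT crypts. Elavl4, Vip, Sox10, Cpa3 and Ms4a2 were named after their values were seen. They do not stand for the other markers of their lists, and the source of the hormone transcripts was not tested. Of 7 pancreatic markers in the table, summing to 9.54 to 18.8 CPM in miR-29ab1-/- crypts and 8.73 to 15.4 CPM in WT crypts, 2 were tested and neither passed, and the islet hormone Ppy averaged 0 CPM in miR-29ab1-/- crypts and 0.0176 CPM in WT crypts. Markers of ileum (8 of 8 called higher) and of proximal gut (3 of 7 tested called higher) both moved, at 1099 to 4182 CPM and 269.9 to 450.3 CPM in miR-29ab1-/- crypts, against 45.4 to 467 CPM and 142 to 170.0 CPM in WT crypts. Fibroblast markers were high in knockout replicates 3 and 4 and WT replicate 3 (191, 193 and 169.7 CPM). Without these 3 libraries, a setting added after seeing the data, 4 hormone genes were called higher. Knockout replicates 3 and 4 were also the lowest knockout libraries for Sst, Sct and Ghrl, whose log2 fold changes grew in this setting. They were 1.65 for Sst and 1.56 for Ghrl, against 1.35 and 1.27 with all libraries. The part of fibroblast RNA was therefore not tested by this setting.

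The promoters of Sst, Gip and Cck are shown as those of the hormone gene with the smallest adjusted p, the one with the largest fold change and the one with the lowest. Each runs from 250 bases before to 50 bases after the annotated start (RefSeq, GRCm38.p6), on the gene's strand. Capitals mark matches on both strands to 4 motifs. TGACGTCA is the palindromic cyclic AMP response element, and TGACG is its shorter form, which the palindrome contains. The core promoter box was searched as TATAAA and the motif of GATA factors as AGATAA. The Sst palindrome begins at position -48 relative to the start, the shorter form in Cck at position -47, on the opposite strand, and the GATA motif in Cck at position -189. Gip holds the GATA motif at 2 places, the second nearer the start.
Sst, chr16:23890795-23891094, minus strand: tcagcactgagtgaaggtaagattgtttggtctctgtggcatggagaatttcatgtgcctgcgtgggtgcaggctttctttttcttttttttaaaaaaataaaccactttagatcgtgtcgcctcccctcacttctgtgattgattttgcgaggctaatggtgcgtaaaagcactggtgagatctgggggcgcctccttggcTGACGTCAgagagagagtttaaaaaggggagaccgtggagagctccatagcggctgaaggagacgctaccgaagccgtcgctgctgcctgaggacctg
Gip, chr11:96024295-96024594, plus strand: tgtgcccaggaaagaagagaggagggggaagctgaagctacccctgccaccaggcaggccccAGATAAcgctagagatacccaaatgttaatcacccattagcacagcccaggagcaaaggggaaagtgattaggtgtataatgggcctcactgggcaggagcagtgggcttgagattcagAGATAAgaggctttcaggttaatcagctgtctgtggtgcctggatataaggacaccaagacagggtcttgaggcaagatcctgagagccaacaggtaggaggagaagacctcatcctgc
Cck, chr9:121495645-121495944, minus strand: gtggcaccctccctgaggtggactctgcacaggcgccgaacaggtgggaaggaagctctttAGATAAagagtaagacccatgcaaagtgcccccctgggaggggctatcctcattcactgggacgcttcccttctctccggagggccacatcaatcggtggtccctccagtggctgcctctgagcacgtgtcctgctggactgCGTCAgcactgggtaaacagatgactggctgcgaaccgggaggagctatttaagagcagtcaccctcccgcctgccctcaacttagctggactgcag

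The 10 genes have 15 annotated promoters, since Ghrl, Tph1 and Pyy have more than 1 each. Shares of 32851 RefSeq promoters of the same length are per promoter. TGACGTCA was found in 1 of the 15 promoters, that of Sst, and in 1.79% of all promoters. TGACG was found in 6 of the 15 (genes Cck, Nts, Sst, Tac1 and Tph1) and in 20.8% of all promoters. AGATAA was found in 4 of the 15 (Cck, Gip, Nts and Tac1) and in 11.2% of all promoters. TATAAA was found in 2 of the 15 (Gcg and Sct) and in 13.6% of all promoters. CANNTG, the E-box that Neurod1 and related factors bind, was found in 14 of the 15, with all 10 genes holding it, and in 72.3% of all promoters. Neither the genes called higher nor the others shared a match that the rest lacked.

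Across the 8 libraries, the likeness of profiles was measured as the root mean square difference of log2 CPM after each gene was centred on its own mean, a description over libraries that share genotype and replicate numbers. Sst and Ghrl were each other's nearest hormone (0.23), Sct was nearest to Ghrl (0.30), and Tac1 and Tph1 were nearest to each other (0.28). Gip was nearest to Sct (0.42), Nts to Sct (0.47), Pyy to Cck (0.50), Gcg to Cck (0.51) and Cck to Tph1 (0.49). Among all genes with a mean of at least 50 counts, the nearest to Tph1 was Chga (0.14). The nearest gene was Smim22 for Sct (0.11), Tstd1 for Ghrl (0.16), Casp4 for Sst (0.18), Fam78a for Gip (0.20) and Slc16a3 for Nts (0.36). For the other genes it was Psme1 for Cck (0.16), H2-DMa for Gcg (0.22), Rasa4 for Tac1 (0.20) and AA467197 for Pyy (0.30).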

How the data were processed

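Total RNA of 8 libraries was extracted with TRIzol, per the labels' protocols. HISAT2 and DESeq2 are named without role or version, per the submitters' processing notes. How reads were counted, on which build and annotation and with what strandedness is not given in the sources used here. Counts were made and deposited by the authors for each gene in each library, per the file headers. These deposited values were not all whole (8.04% to 9.18% had a fraction), so they are estimated counts, and they were rounded. The second deposited set of columns has no unit in its header and was taken as FPKM from its relation to the counts. The authors' averages (4 columns) were not used.

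Testing used edgeR 4.0.16 under R 4.3.3 (filterByExpr, TMM, glmQLFit, glmQLFTest, genotype alone, Benjamini-Hochberg threshold 0.05). Fold changes are miR-29ab1-/- over WT, and the SE is the log2 fold change divided by the square root of F. Alternatives were other scalings, DESeq2 1.42.0, limma 3.58.1 on log2(FPKM + 1) or log2(FPKM + 0.1), other count filters, unrounded values, the replicate block, each library left out, and 2 settings added after seeing the data (without both libraries numbered 3, and without the 3 libraries highest in fibroblast markers).

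Deviations from the group means correlated at 0.31 to 0.52 between libraries with the same replicate number and at -0.48 to 0.45 otherwise. On this ground, with no label that explains the numbers, same-numbered libraries were treated as pairs in the block fit. The pairs were thus chosen from the values that the fit tests. They were not clear throughout, since WT replicate 2 best matched a knockout library of another number. The labels do not tell how the animals were handled, and p-values therefore cover the spread among these samples alone. The closest libraries of a group, WT replicates 1 and 2, differed by 5.89 times the sampling variance, more than sequencing 1 library again would give. Other pairs within a group differed by 28.7 to 115 times that variance. Whether libraries came from different animals cannot be told from these values. The members, lists and tests were chosen with earlier results of these data known. Genes named are the 10 hormones, from each other list up to 4 called genes with the smallest p (all, where 5 or fewer were called in a direction), and the nearest profile of each hormone. Chgb, Neurog3, Mboat4 and other genes not called were named after their values were seen. Depth limits the precision of genes with few counts, and the totals per group are given with the results. One marker of the enteric neuron list is not reported here and is not in that list's counts or sums.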

Additional observations from a re-analysis of the deposited data

How the results depend on the processing

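Gip kept its direction and call under 20 of 21 alternative settings, Sct under 18, and Sst and Ghrl under all 21. The number of hormone genes called higher was 2 without both libraries numbered 3 and 3 to 4 when 1 library was left out, and with the replicate block it was 5. The number called lower was 1 (Cck) with scaling by total counts, with limma on log2(FPKM + 1) and without replicate 4 of both groups, and 0 to 1 when 1 library was left out. Over all genes, limma called 2039 higher on log2(FPKM + 1) and 2035 on log2(FPKM + 0.1), against 3129; leaving out 1 library gave 2366 to 3184 higher and 2380 to 3228 lower.

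Genes that were never called changed sign. The log2 fold change of Gcg was above 0 with a mean filter of 50 counts (0.0084), with the replicate block (0.11) and without the 3 libraries highest in fibroblast markers (0.26), and ran from -0.33 to 0.17 when 1 library was left out (above 0 without knockout replicate 4 or WT replicate 1, 2 or 3). That of Pyy was 0.065 with the replicate block and ran from -0.32 to 0.41 when 1 library was left out (above 0 without knockout replicate 2 or WT replicate 1 or 2). That of Tac1 was below 0 without replicate 4 of both groups (-0.13) and without the 3 libraries highest in fibroblast markers (-0.10). The cause was not tested. Of 520 values for 25 called genes of the other lists, 418 kept their call, 102 lost it (12 genes) and 0 changed sign. On log2(FPKM + 1), which shrinks low genes, limma gave log2 fold changes of 0.06 for Cacna1c, 0.27 for Lmx1a, 0.34 for Snap25, 0.35 for Sstr3, 0.42 for Nkx2-2 and 2.58 for Slc6a4, and without the 3 libraries highest in fibroblast markers edgeR gave 2.89 for Maoa. With the replicate block, the calls changed for Nts, Chga, Snap25, Ffar4 and Rfx3, given above, and Adm (0.93, edgeR adjusted p = 0.0407), Resp18 (0.76, 0.0259), Cacna1a (0.67, 0.0466) and Sstr1 (0.99, 0.0477) were added.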

Other observations

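Several genes of the endocrine lists had too few counts in most libraries to be tested. Ucn3, urocortin 3, averaged 1.00 ± 0.401 CPM in miR-29ab1-/- crypts and 0.176 ± 0.0653 CPM in WT crypts (SD, n = 4 each). Of 18 nutrient sensors 12 were not tested, among them the bile acid receptor gene Gpbar1 and the calcium-sensing receptor gene Casr. Of the receptors for the hormones themselves, Gipr averaged 0.430 CPM in miR-29ab1-/- crypts and 0.475 CPM in WT crypts, Sctr 0.0464 CPM in miR-29ab1-/- crypts and 0 CPM in WT crypts, and Ntsr1 0 CPM in miR-29ab1-/- crypts and 0.0287 CPM in WT crypts. Dixon's ratio on CPM, over 20 groups of 4 libraries, flagged no library for any hormone gene. With 4 values per group this ratio misses all but extreme gaps, so it does not show that no library stood apart. WT replicate 4 had 11.3 CPM for Gcg, against 43.7 to 55.1 CPM in the other WT libraries. For Sst it had 20.4 CPM, against 49.0 to 56.9 CPM in the other WT libraries. It was also the lowest WT library for all 10 hormone genes.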
